A study of Homo sapiens with 12 samples.

Results

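The RNA response to everolimus that 2 human breast cancer lines, BT-549 and MDA-MB-231, have in common was measured as the main effect of treatment, with the cell line as a factor in the model. Its members are genes with a single symbol in the array annotation. Of 20046 such genes, 11764 gave a signal above a background floor of 6.77 on at least 3 of 12 arrays and were tested. BT-549 and MDA-MB-231 cells were each kept for 48 h in 10 uM everolimus (3 arrays per line) or in the vehicle DMSO (3 arrays per line), so 6 everolimus arrays faced 6 DMSO arrays. Total RNA was hybridised to Illumina bead arrays, and all signals and changes below are on the log2 scale. The labels class both lines as triple-negative, a form of breast cancer that lacks oestrogen and progesterone receptors and HER2 amplification. Only 1 dose and 1 time point were measured. The labels do not say that replicates came from separate cultures, so p-values measure the spread between these arrays, which may be technical.

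Everolimus is a rapamycin analogue. It binds the small protein FKBP12, and the pair blocks mTOR, a kinase that couples growth factor and nutrient signals to ribosome production, protein synthesis, lipid and nucleotide synthesis and the restraint of autophagy. mTOR activity also favours the output of mitochondrial proteins encoded in the nucleus, while the related kinases AKT and SGK keep FOXO transcription factors out of the nucleus.

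Between 9840 and 10360 of the tested genes lay above the floor on any array, and the correlation between replicate arrays was 0.927 to 0.995. The replicate 1 array deviated most from its group mean in all 4 groups (SD of the deviations over genes 0.229 to 0.393, against 0.0822 to 0.227 on the other 8 arrays), so counts without these 4 arrays are given beside those from all arrays. All 12 mesenchymal marker genes were above the floor on at least 1 array, as were 9 of 13 luminal markers (KRT19, XBP1 and KRT8 among them), while the luminal genes ESR1, CDH1, GRHL2 and TFF1 were not above it on any. The leukocyte marker list averaged 6.63 to 6.80 on everolimus arrays and 6.63 to 6.76 on DMSO arrays, and 5 of its 11 genes, CD14 and LYZ among them, were above the floor on at least 1 array, while PTPRC, CD3D, CD3E, FCER1G, NKG7 and TYROBP were not. In total RNA, a fall in one transcript cannot be told apart from a smaller share of cells that carry it.

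The averaged effect was called, at a limma adjusted p under 0.05, for 930 of 11764 genes, which is 7.91%. Of these, 482 (4.1%) were higher and 448 (3.81%) lower in everolimus, and 2999 genes had an unadjusted p under 0.05. The typical change was modest. Genes called higher had a median log2 fold change of 0.56 (0.71 in BT-549 and 0.39 in MDA-MB-231), and genes called lower had a median of -0.50 (-0.60 in BT-549 and -0.41 in MDA-MB-231). At least a 2-fold change in each line was seen for 7 genes called higher and 1 called lower. The BT-549 change was the larger one in 415 of the 482 genes called higher and in 344 of the 448 called lower. The SE of an averaged change had a median of 0.117 over all genes.

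A stricter count asked that the 3 everolimus and 3 DMSO arrays did not overlap in either line, in the same direction. By that rule 593 calls (5.04% of genes tested) were shared by the lines, 304 higher (2.58%) and 289 lower (2.46%). Without regard to the call, the arrays separated in this way for 368 genes higher (3.13%) and 349 genes lower (2.97%). All 930 called genes changed in the same direction in both lines. The additive model favours this, since a gene with unlike effects adds to its own residual. The BT-549 contrast by itself called 398 of the 482 genes higher and 327 of the 448 genes lower, and the MDA-MB-231 contrast only 9 and 6. Over all genes tested, 1972 were called in BT-549 and 18 in MDA-MB-231, with 11 called in both in the same direction. Neither line's own contrast called 83 of the 482 genes higher and 118 of the 448 genes lower, so these were reached only with both lines together. Among called genes with another probe above the floor, that probe had the same sign for 134 of 157 genes higher and 134 of 148 genes lower. It was itself called in the same direction for only 44 of the 157 and 56 of the 148.

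The number of calls rested on single arrays. It was 309 without BT-549 DMSO replicate 2, 415 without BT-549 DMSO replicate 3, 500 and 516 without BT-549 everolimus replicates 3 and 2, and 589 without MDA-MB-231 everolimus replicate 3, and it lay between 702 and 1227 without any other single array. Of the 309 calls left without BT-549 DMSO replicate 2, all 309 were among the 930. Without the 4 replicate 1 arrays 1541 genes were called, 833 higher (7.08% of genes tested) and 708 lower (6.02%), of which 734 were among the 930. Shared calls numbered 292 without BT-549 DMSO replicate 2, 374 without BT-549 DMSO replicate 3, 960 without MDA-MB-231 everolimus replicate 1 and 1507 without the replicate 1 arrays, where only 2 arrays a group had to separate.

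**Figure D1:**
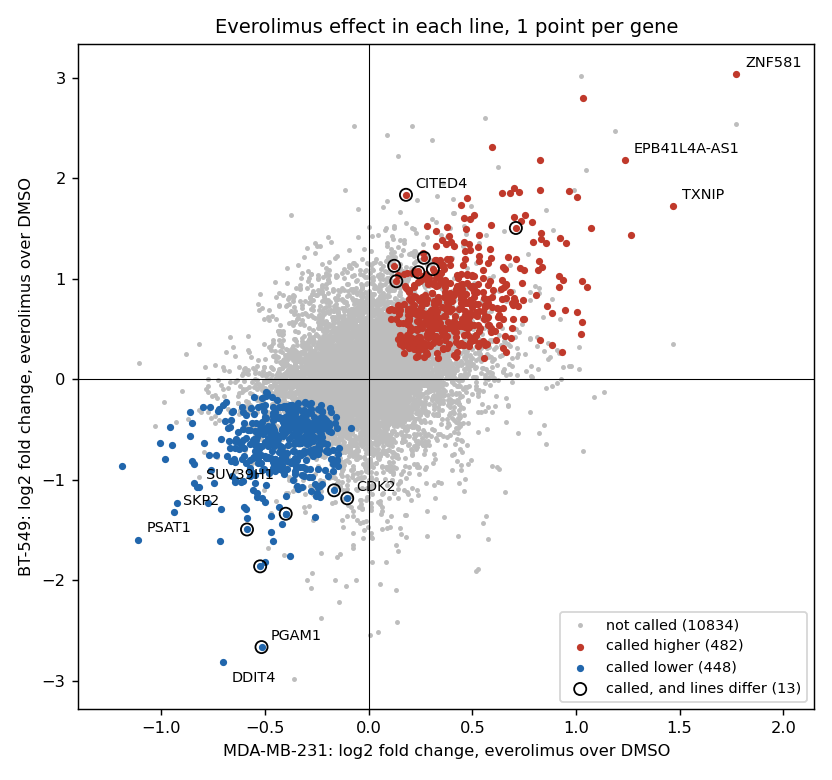
Log2 fold change of each of 11764 genes (everolimus over DMSO) in MDA-MB-231 on the horizontal axis and in BT-549 on the vertical axis. Red points are the 482 genes called higher and blue points the 448 called lower for the averaged effect; circles mark the 13 called genes whose effect also differed between the lines. Called genes lie at the upper right and lower left, further out along the BT-549 axis.

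The genes for the drug's binding partner and its target kinase were not called. MTOR had an averaged log2 fold change of -0.04 (SE 0.19, 95% interval -0.46 to 0.39, adjusted p = 0.938). FKBP1A, which encodes FKBP12, had -0.10 (SE 0.16, interval -0.44 to 0.25, adjusted p = 0.751), and its 3 other probes gave -0.25, -0.21 and -0.40. Neither was called in 12 fits that left out 1 array.

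SUV39H1, the heterochromatin methyltransferase named in the series title, fell in both lines. SUV39H1 (probe ILMN_1781479) read 7.76, 7.39 and 7.16 on the BT-549 everolimus arrays, against 8.56, 8.52 and 8.43 on the BT-549 DMSO arrays. On the MDA-MB-231 arrays it read 7.81, 7.92 and 8.05 in everolimus, against 8.95, 8.59 and 8.72 in DMSO. Every everolimus array lay below every DMSO array, across lines as well as within them. The averaged log2 fold change was -0.95 (SE 0.11, interval -1.19 to -0.71, adjusted p = 0.00174), a 1.93-fold lower signal. It was called in 12 of 12 fits with 1 array left out (adjusted p 0.00188 to 0.00984). Within single lines it was called in BT-549 (limma adjusted p = 0.00195) but not in MDA-MB-231 (limma adjusted p = 0.0665).

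The genes that rose furthest in both lines, ranked by the smaller of the 2 within-line changes, were a mixed set of adaptors, metabolic regulators and ubiquitin ligase subunits. ZNF581, a zinc finger protein, led them. ZNF581 (probe ILMN_1679093) read 12.04, 12.22 and 12.47 on BT-549 everolimus arrays, against 9.44, 9.24 and 8.94 in DMSO, and 9.90, 10.60 and 10.93 on MDA-MB-231 everolimus arrays, against 8.74, 8.68 and 8.69 in DMSO. The groups stood apart in both lines, by more in BT-549. The averaged change was 2.40 (SE 0.24, adjusted p = 0.000822).

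TXNIP, an arrestin-like protein that binds thioredoxin and limits glucose uptake, was the next. TXNIP read 8.19, 9.43 and 9.62 on BT-549 everolimus arrays, against 7.07, 7.32 and 7.67 in DMSO, and 11.65, 12.26 and 12.29 on MDA-MB-231 everolimus arrays, against 10.17, 10.86 and 10.76 in DMSO. The lines had different levels, the groups stood apart in both, and the changes were 1.73 in BT-549 and 1.47 in MDA-MB-231 (limma adjusted p of the difference = 0.85). The averaged change was 1.60 (SE 0.24, adjusted p = 0.00479). KLHL24, a substrate adaptor of a cullin ubiquitin ligase, rose by 1.35 (SE 0.14, adjusted p = 0.000974). KLHL24 read 10.94, 10.65 and 10.55 on BT-549 everolimus arrays, against 9.73, 9.26 and 8.84 in DMSO, and 8.82, 8.83 and 9.03 on MDA-MB-231 everolimus arrays, against 7.88, 7.52 and 7.48 in DMSO.

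IRS2, the docking protein that carries insulin and IGF receptor signals to PI3K, rose by 0.92 in each line. IRS2 read 7.80, 7.78 and 7.41 on BT-549 everolimus arrays, against 6.87, 6.55 and 6.82 in DMSO, and 9.02, 8.93 and 8.63 on MDA-MB-231 everolimus arrays, against 8.08, 7.82 and 7.93 in DMSO. In BT-549 DMSO cells it lay near the background floor, where fold changes are understated. The averaged change was 0.92 (SE 0.10, adjusted p = 0.00153).

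The other shared rises in this ranking were EPB41L4A-AS1, a long non-coding RNA that hosts a small nucleolar RNA (1.71), CDK7, the kinase of the general transcription factor TFIIH (1.41), and SPSB3, a SOCS box ubiquitin ligase adaptor (1.29). PIM1, a growth-promoting kinase (1.17), ZSWIM4 (1.15) and ABCA1, a cholesterol exporter (1.10), followed, with ABTB1 (1.00) and HS1BP3, a lipid-binding regulator of autophagy (0.99). KLF6, a zinc finger transcription factor (0.98), CREBRF, a regulator of the CREB3 factors and of energy storage (0.97), and GRAMD1A, which moves cholesterol to the endoplasmic reticulum (0.96), completed the 15. Their adjusted p ran from 0.00064 to 0.0181. In fits that left out 1 array, 14 of the 15 were called every time. ABTB1 was lost without BT-549 DMSO replicate 2 (adjusted p = 0.0507). For ZSWIM4 a second probe read only 0.09, so its probes disagree.

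The genes that fell furthest in both lines were led by PSAT1, an aminotransferase of serine synthesis. PSAT1 read 7.57, 8.64 and 8.79 on BT-549 everolimus arrays, against 9.79, 9.84 and 10.15 in DMSO, and 8.53, 8.48 and 8.58 on MDA-MB-231 everolimus arrays, against 9.76, 9.33 and 9.84 in DMSO. The averaged change was -1.35 (SE 0.20, adjusted p = 0.00425), and no everolimus array of either line reached any DMSO array. SKP2, the ubiquitin ligase subunit that marks the CDK inhibitor p27 for destruction, fell by 1.13 (SE 0.15, adjusted p = 0.00243). SKP2 read 8.89, 8.88 and 8.82 on BT-549 everolimus arrays, against 9.85, 10.22 and 10.49 in DMSO, and 9.05, 8.66 and 8.27 on MDA-MB-231 everolimus arrays, against 9.74, 9.44 and 9.61 in DMSO. Its other probes read -0.69 and -0.11, so they disagree on the size.

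Of the 15 shared falls in this ranking, 6 encode proteins of the mitochondrial lists described further on. ATP5MC1 (-1.02) is a ring subunit of ATP synthase and UQCR10 (-0.94) a subunit of respiratory complex III; other probes read -0.24 for ATP5MC1 and -0.12 and -0.34 for UQCR10. In the same set SDHAF3 (-0.84), NDUFAF5 (-0.89) and RTN4IP1 (-0.76) help to assemble respiratory complexes. TOMM5, of the import pore of the outer mitochondrial membrane, fell by 1.00. NDUFAF5 had the smallest adjusted p of these 6. NDUFAF5 read 7.77, 7.98 and 7.84 on BT-549 everolimus arrays, against 8.59, 8.56 and 8.82 in DMSO, and 7.88, 7.92 and 7.88 on MDA-MB-231 everolimus arrays, against 8.99, 8.78 and 8.86 in DMSO (SE 0.08, adjusted p = 0.00064).

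The remaining shared falls were SDF2L1 (-1.16), a chaperone partner in the endoplasmic reticulum, GPX8 (-1.08), a peroxidase of the same compartment, and LSM10, a core protein of the U7 particle that cuts histone messenger RNAs, which fell by 1.00. RPL36A (-0.94), a ribosomal protein with near copies in the genome, had a second probe at -0.02 and is uncertain. SUV39H1 (-0.95), HSPA14 (-0.89), a ribosome-bound chaperone, and MARS1 (-0.83), the methionyl-tRNA synthetase, completed the 15. All 15 were called in each of the 12 fits that left out 1 array, with adjusted p of at most 0.0407, and all 15 without the replicate 1 arrays.

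**Figure D2:**
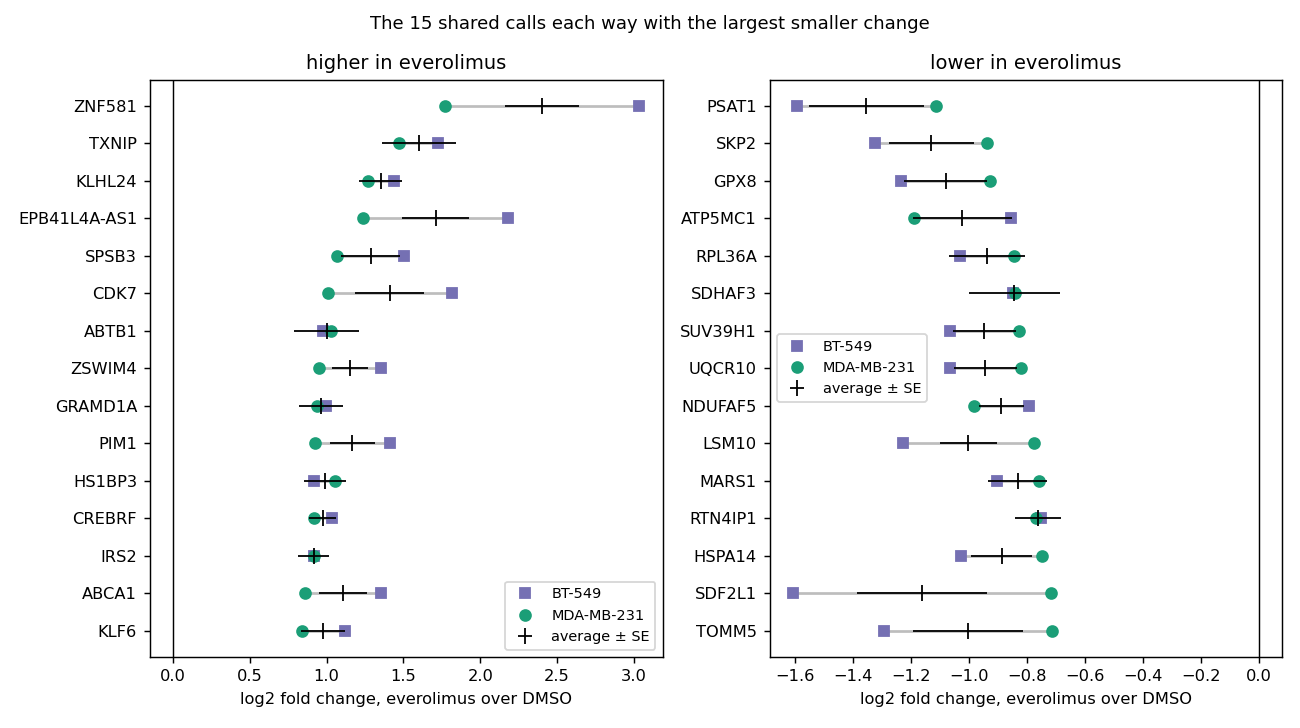
Log2 fold changes (everolimus over DMSO) of the 15 shared calls higher (left) and the 15 shared calls lower (right), ranked by the smaller within-line change. Squares are BT-549, circles MDA-MB-231 and black ticks the average with its SE; IRS2 and SDHAF3 had almost the same change in both lines, while ZNF581 and SDF2L1 changed more in BT-549.

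**Figure D3:**
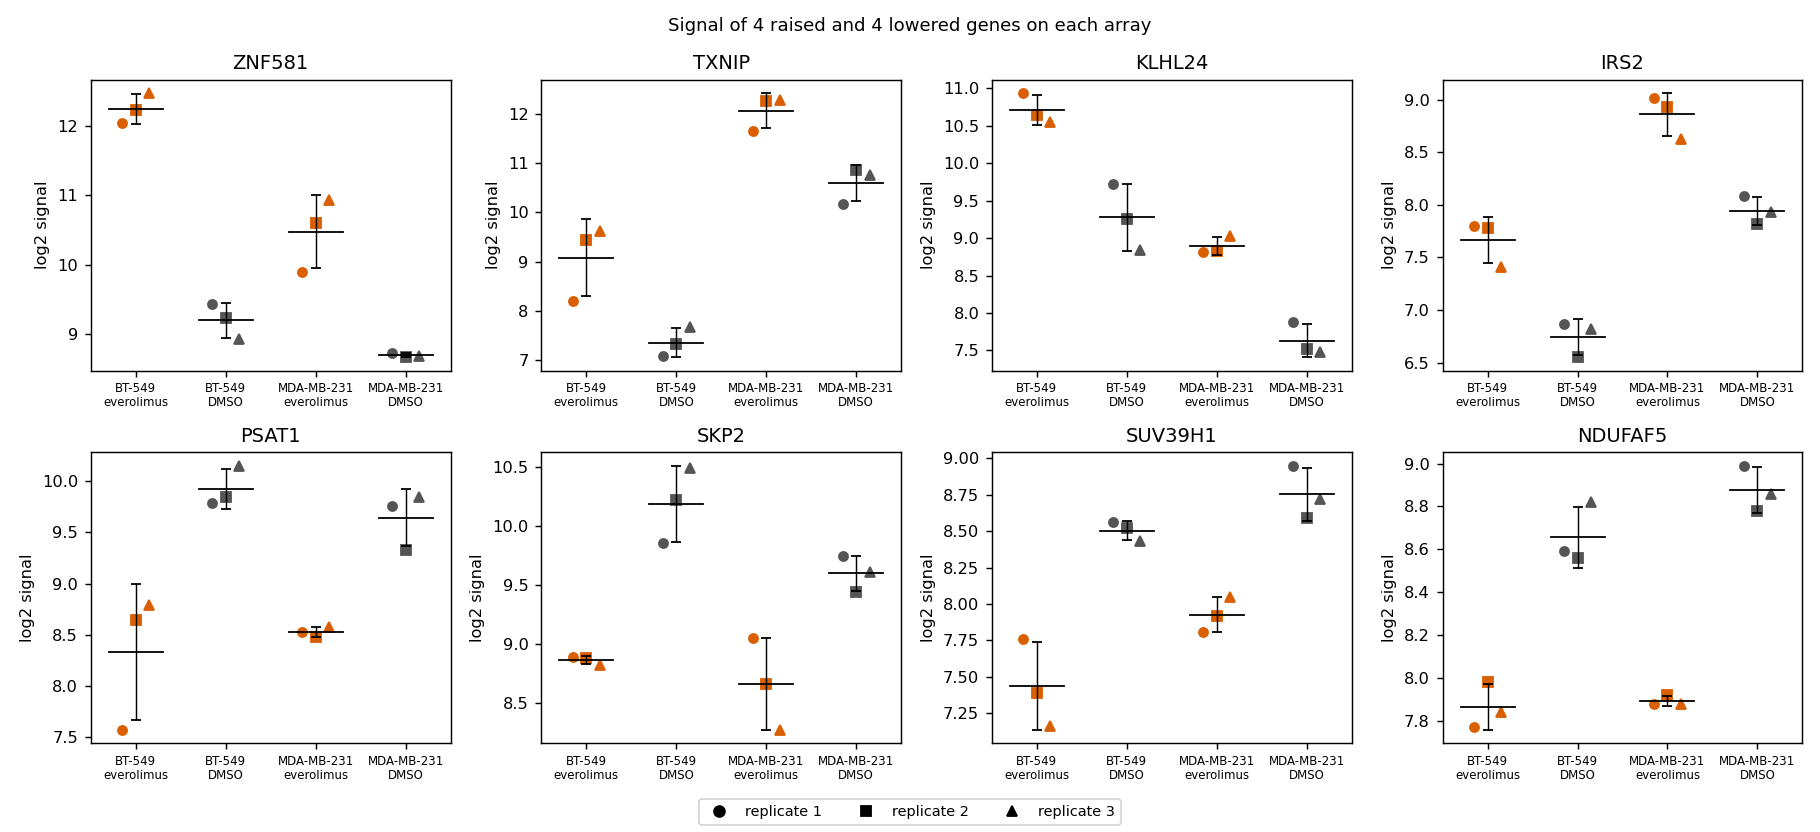
Log2 signal of 4 genes called higher (upper row) and 4 called lower (lower row) on each array, with 1 symbol per replicate number and lines for the mean and SD of 3 arrays. In all 8 genes the everolimus arrays (orange) and the DMSO arrays (grey) of each line are separate.

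Promoter sequences of the 4 shared calls ranked first in each direction are shown because these genes moved together in both lines. They come from RefSeq (GRCh38.p14), span 250 bases before to 50 after the annotated start on the gene's own strand, and carry in capitals the matches, on either strand, to short motifs. The windows lie for ZNF581 at chr19:55643399-55643698 (plus), TXNIP at chr1:145996530-145996829 (minus), KLHL24 at chr3:183635373-183635672 (plus) and EPB41L4A-AS1 at chr5:112160276-112160575 (plus). Those of genes that fell lie for PSAT1 at chr9:78296875-78297174 (plus), SKP2 at chr5:36151861-36152160 (plus), GPX8 at chr5:55159921-55160220 (plus) and ATP5MC1 at chr17:48892537-48892836 (plus), with the strand in brackets.
ZNF581: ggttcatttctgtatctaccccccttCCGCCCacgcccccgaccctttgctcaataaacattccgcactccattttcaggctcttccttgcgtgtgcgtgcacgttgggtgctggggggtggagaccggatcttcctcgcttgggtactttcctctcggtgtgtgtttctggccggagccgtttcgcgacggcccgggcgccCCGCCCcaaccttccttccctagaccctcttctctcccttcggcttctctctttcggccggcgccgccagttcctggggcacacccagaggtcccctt
TXNIP: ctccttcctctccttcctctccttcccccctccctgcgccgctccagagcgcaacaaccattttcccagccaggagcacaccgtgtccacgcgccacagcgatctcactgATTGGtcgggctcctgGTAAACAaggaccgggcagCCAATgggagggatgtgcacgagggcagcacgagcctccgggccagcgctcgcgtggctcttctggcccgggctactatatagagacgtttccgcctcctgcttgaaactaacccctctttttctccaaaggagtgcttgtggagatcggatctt
KLHL24: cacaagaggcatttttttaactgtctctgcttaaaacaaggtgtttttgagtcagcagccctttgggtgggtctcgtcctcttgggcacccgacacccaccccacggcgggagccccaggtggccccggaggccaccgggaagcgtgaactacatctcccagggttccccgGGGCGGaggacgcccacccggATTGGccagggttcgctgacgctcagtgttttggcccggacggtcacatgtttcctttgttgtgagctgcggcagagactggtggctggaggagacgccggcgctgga
EPB41L4A-AS1: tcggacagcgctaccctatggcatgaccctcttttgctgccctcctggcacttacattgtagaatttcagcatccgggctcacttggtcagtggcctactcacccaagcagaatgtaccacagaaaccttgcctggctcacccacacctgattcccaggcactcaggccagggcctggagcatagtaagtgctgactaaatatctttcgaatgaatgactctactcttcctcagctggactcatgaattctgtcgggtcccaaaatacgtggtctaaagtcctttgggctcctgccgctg
PSAT1: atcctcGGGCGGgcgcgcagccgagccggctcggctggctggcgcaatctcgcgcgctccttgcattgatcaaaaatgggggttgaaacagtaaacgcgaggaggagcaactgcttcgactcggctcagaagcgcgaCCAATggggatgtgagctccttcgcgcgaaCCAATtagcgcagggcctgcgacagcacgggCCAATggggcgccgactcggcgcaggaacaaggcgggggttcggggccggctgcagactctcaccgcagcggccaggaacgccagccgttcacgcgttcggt
SKP2: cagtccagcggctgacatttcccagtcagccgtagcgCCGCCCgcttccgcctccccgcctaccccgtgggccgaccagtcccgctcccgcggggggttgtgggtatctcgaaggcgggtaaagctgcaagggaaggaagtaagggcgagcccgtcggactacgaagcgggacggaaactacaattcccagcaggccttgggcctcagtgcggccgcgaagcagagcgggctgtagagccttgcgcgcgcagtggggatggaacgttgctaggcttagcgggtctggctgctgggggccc
GPX8: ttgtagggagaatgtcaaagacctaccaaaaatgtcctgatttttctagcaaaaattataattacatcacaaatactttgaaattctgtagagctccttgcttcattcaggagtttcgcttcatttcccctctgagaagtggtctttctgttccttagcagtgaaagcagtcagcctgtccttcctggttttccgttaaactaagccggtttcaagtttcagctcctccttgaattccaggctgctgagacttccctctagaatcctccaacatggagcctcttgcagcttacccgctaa
ATP5MC1: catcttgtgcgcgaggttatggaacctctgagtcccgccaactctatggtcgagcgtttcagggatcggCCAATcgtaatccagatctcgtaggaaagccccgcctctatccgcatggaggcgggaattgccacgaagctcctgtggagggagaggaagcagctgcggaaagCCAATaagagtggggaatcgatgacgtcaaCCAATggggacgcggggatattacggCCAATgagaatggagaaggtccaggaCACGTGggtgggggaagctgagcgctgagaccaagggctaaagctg
The TXNIP window holds a forkhead match (TGTTTAC, the core bound by FOXO factors, here on the opposite strand) between a pair of CCAAT boxes (CCAAT, bound by NF-Y). KLHL24 holds a GC box (GGGCGG, bound by SP factors) and a CCAAT box. PSAT1 holds 3 CCAAT boxes and a GC box, and ATP5MC1 holds 4 CCAAT boxes and an E-box (CACGTG). ZNF581 holds 2 GC boxes and SKP2 holds 1, and the windows of EPB41L4A-AS1 and GPX8 hold none of the motifs searched.

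Over all shared calls, windows were found for 254 of 304 genes higher and 244 of 289 lower, and for 9426 of 11764 genes tested. The forkhead letters TGTTTAC stood in 5.12% of windows of shared calls higher (13 genes), 1.23% of those lower (3 genes) and 2.32% of all. GCATGCGC, the core of the NRF1 element found in many nuclear genes for mitochondrial proteins, stood in 3.15% of windows higher, 12.7% of windows lower (31 genes) and 5.59% of all. The E-box CACGTG stood in 15.7%, 11.9% and 10.4%, and its longer form TCACGTGA, which contains it and is read by the lysosomal factor TFEB, in 4.72%, 1.23% and 2.06%. CCAAT stood in 33.9%, 41.8% and 37.4%, and GGGCGG in 76.4%, 66.4% and 69.4%. The other motifs searched, in the same order, were CCGGAAGT (8.27%, 10.7% and 8.67%), AAGATGGCG (4.72%, 6.56% and 3.9%) and CTCGCGAG (1.97%, 3.69% and 2.04%). Rarer ones were TTTGGCGC (0%, 1.23% and 1.04%), TTTCGCGC (0.39%, 0.41% and 1.12%) and TGATGCAA (0.39%, 1.23% and 0.51%). GC content was similar, with medians of 66.3% higher, 63.3% lower and 65% overall. A match is a description of these letters and not a bound site.

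Genes for mitochondrial proteins made up the broadest group that fell. Over 6 lists (respiratory chain, its assembly factors, mitochondrial ribosome, import and proteases, citric acid cycle and coenzyme Q), 63 of 269 genes tested (23.4%) were called lower and 4 (1.49%) higher, against 3.81% and 4.1% of all genes. Shared calls lower numbered 42 (15.6%), against 2.46% of all genes.

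Among 72 subunits of the respiratory chain and ATP synthase, 23 were called lower and 0 higher, and 58 lay below 0 in both lines, which is 80.6% against 28.2% of all genes. The list's median change was -0.33 (-0.37 in BT-549 and -0.20 in MDA-MB-231), against 0.01 over all genes. UQCRQ, a subunit of complex III, shows the pattern at a high signal. UQCRQ read 12.21, 12.61 and 12.45 on BT-549 everolimus arrays, against 13.12, 13.29 and 13.20 in DMSO, and 12.58, 12.50 and 12.61 on MDA-MB-231 everolimus arrays, against 13.15, 13.08 and 13.06 in DMSO. It fell by 0.66 (SE 0.08, adjusted p = 0.00243). UQCR10 and UQCRQ of complex III, ATP5MF of ATP synthase (-0.68, adjusted p = 0.00456) and NDUFA8 of complex I (-0.47, adjusted p = 0.00524) had the smallest p. Without BT-549 everolimus replicates 2 and 3 or BT-549 DMSO replicates 2 and 3, the calls lower numbered 13, 12, 8 and 10, and without the replicate 1 arrays 25.

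Assembly factors of the respiratory complexes fell too, with 11 of 46 called lower (8 of them shared) and 1 higher. NDUFAF5, RTN4IP1, NDUFAF4 (-0.58) and COX14 (-0.46) led the falls. TTC19, an assembly factor of complex III, was the gene called higher (0.55, adjusted p = 0.0224) and is named after its value was seen. Without BT-549 DMSO replicate 2 the calls lower numbered 7 and TTC19 was not called, nor was it without BT-549 DMSO replicate 3 or BT-549 everolimus replicates 2 and 3, which left 0 calls higher.

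Of the proteins of the mitochondrial ribosome, 19 of 77 were called lower (14 shared), and 62 lay below 0 in both lines (80.5%). Its median was -0.31, and MRPL22, MRPS7, MRPL52 and MRPL42 fell by 0.62, 0.64, 0.83 and 0.82. MRPL22 read 10.15, 10.16 and 10.17 on BT-549 everolimus arrays, against 10.64, 10.83 and 10.92 in DMSO, and 10.21, 10.21 and 10.15 on MDA-MB-231 everolimus arrays, against 10.62, 10.98 and 10.81 in DMSO (adjusted p = 0.00215). MRPL10 was called higher (0.49, adjusted p = 0.0332, named after its value was seen), and this call was lost in 8 of 12 fits with 1 array left out. Calls lower numbered 11 without BT-549 DMSO replicate 2, 12 without BT-549 DMSO replicate 3 and 27 without the replicate 1 arrays.

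Among 42 genes of mitochondrial import and quality control, 5 were called lower (11.9%), all shared, and 1 higher (2.38%). TIMM8B (-0.71) and TIMM8A (-0.58), chaperones of the space between the membranes, fell with TOMM5, while PMPCB, a subunit of the presequence protease, rose by 0.46 (adjusted p = 0.0186). The calls lower were 3 without MDA-MB-231 everolimus replicate 3, BT-549 everolimus replicates 2 or 3, or BT-549 DMSO replicates 2 or 3, 8 without BT-549 DMSO replicate 1, and 10 without the replicate 1 arrays. In the citric acid cycle 2 of 19 genes fell (10.5%), both subunits of succinyl-CoA ligase (SUCLA2 -0.56 and SUCLG1 -0.44). Of its genes 0 were called without BT-549 DMSO replicate 2 and 1 without BT-549 DMSO replicate 3 or without the replicate 1 arrays. Of 13 genes of coenzyme Q synthesis 3 fell (23.1%) and 1 rose (7.69%). PDSS1 (-0.64), PDSS2 (-0.31) and COQ3 (-0.71) make the tail and methylate the ring, and COQ8A, an atypical kinase of the pathway, rose by 1.11 (adjusted p = 0.00198). Without BT-549 DMSO replicate 2 only 1 of the 3 falls was called.

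With all arrays, the proteasome had the highest share of falls of the 39 pathway lists, an order that turned in some fits with 1 array left out (without MDA-MB-231 everolimus replicate 1, 14 of 42, against 26 of 72 in the respiratory chain). Of 42 tested subunits and regulators 15 were called lower (35.7%, against 3.81% of all genes) and 0 higher. Of the calls 11 were shared, and 32 genes lay below 0 in both lines. The median was -0.40 (-0.41 in BT-549 and -0.30 in MDA-MB-231). The falls covered the core (PSMA2 -0.44, PSMB1 -0.45), the cap (PSMD1 -0.68) and the nuclear activator PSME3 (-0.72). PSMA2 read 7.51, 7.47 and 7.54 on BT-549 everolimus arrays, against 7.85, 7.84 and 7.97 in DMSO, and 8.22, 8.26 and 8.18 on MDA-MB-231 everolimus arrays, against 8.60, 8.81 and 8.73 in DMSO (adjusted p = 0.00425). The change was small, and the replicates were tight enough to separate the groups. Calls lower numbered 8 without BT-549 DMSO replicate 2, 9 without BT-549 DMSO replicate 3 and 19 without the replicate 1 arrays.

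**Figure D4:**
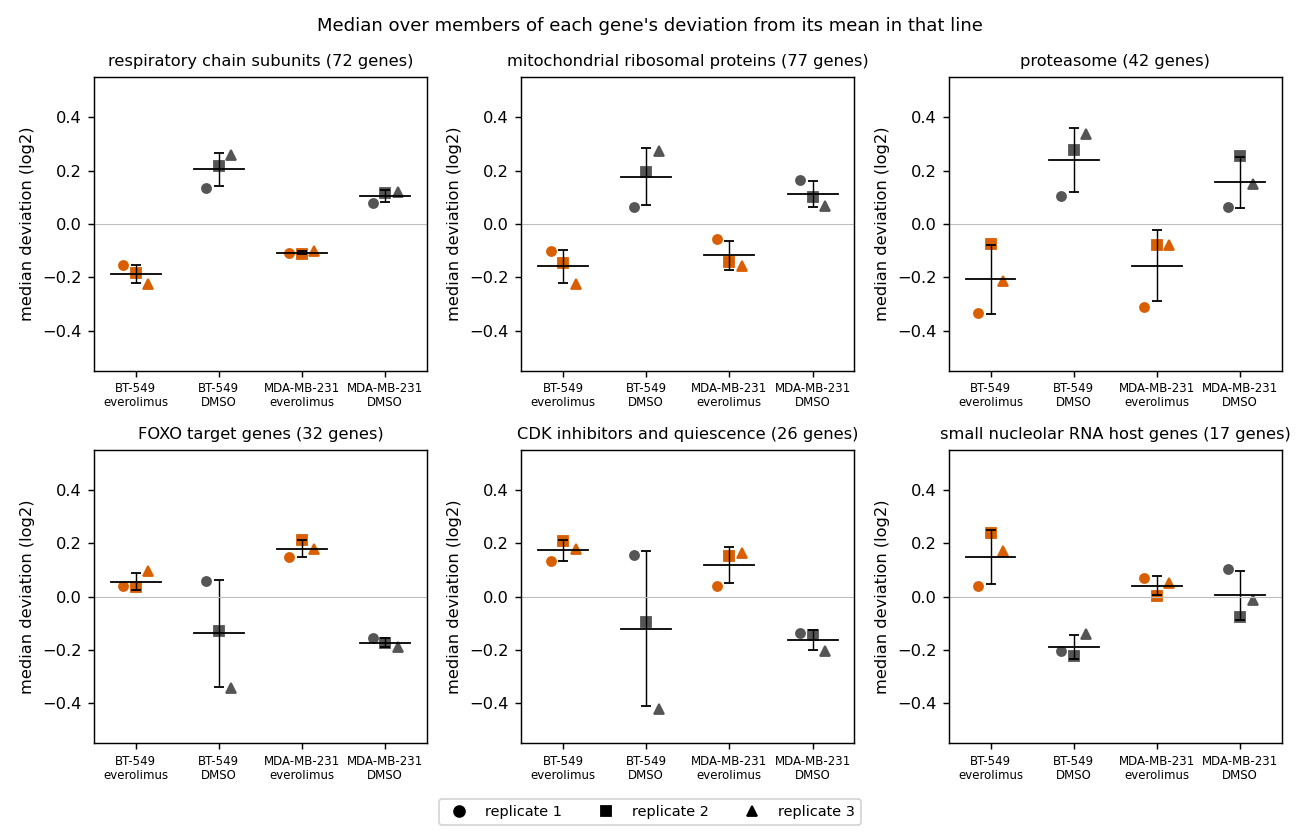
For 6 gene lists, the median over members of each gene's deviation from its mean in that line (log2), on each array; symbols are replicate numbers, and lines give the mean and SD of 3 arrays. In the respiratory chain, mitochondrial ribosome and proteasome panels every everolimus array of a line lies below every DMSO array, while FOXO targets and quiescence genes overlap in BT-549 through DMSO replicate 1 and the nucleolar RNA hosts overlap in MDA-MB-231.

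On single arrays the 3 lists behaved as groups. The respiratory chain median lay at -0.15, -0.19 and -0.22 on BT-549 everolimus arrays, against 0.14, 0.22 and 0.26 in DMSO, and at -0.11, -0.11 and -0.10 on MDA-MB-231 everolimus arrays, against 0.08, 0.12 and 0.12 in DMSO. The proteasome median lay at -0.34, -0.07 and -0.22 on BT-549 everolimus arrays, against 0.10, 0.28 and 0.34 in DMSO, and at -0.31, -0.08 and -0.08 on MDA-MB-231 everolimus arrays, against 0.06, 0.25 and 0.15 in DMSO. In both lines the everolimus replicate 1 array was the lowest for the proteasome.

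Lists of cytosolic protein synthesis differed in their shares of calls. Among cytosolic ribosomal proteins 4 of 68 were called higher (5.88%) and 2 lower (2.94%), near the 4.1% and 3.81% of all genes. Their median was 0.00 (-0.03 with array medians made equal). RPS9 rose by 0.42 in both lines and RPL28 by 0.90, while RPL29 fell by 0.99; RPL23A (0.48, adjusted p = 0.026) and RPL13 (0.67, adjusted p = 0.0472, with a second probe at -0.42), named after their values were seen, were the other rises. Only 1 rise was called without BT-549 DMSO replicate 2 or 3. Ribosomal protein genes have many near copies, so single members are uncertain. Among translation factors 7 of 48 were called higher (14.6%, 3 of them shared) and 1 lower (2.08%), while 26 lay above and 22 below 0. The median was 0.09 (0.24 in BT-549 and -0.01 in MDA-MB-231), and it was 0.04 to 0.06 without BT-549 everolimus replicate 3 or BT-549 DMSO replicates 1 or 2 and 0.05 without the replicate 1 arrays. EEF2, the translocase of elongation, rose by 0.65 (adjusted p = 0.00479). EEF2 read 14.20, 13.57 and 13.83 on BT-549 everolimus arrays, against 13.21, 13.06 and 13.11 in DMSO, and 12.54, 12.55 and 12.53 on MDA-MB-231 everolimus arrays, against 11.90, 11.98 and 12.05 in DMSO. EEF1D (0.49, second probe 0.29) and EIF1 (0.66) rose as well. EIF4E, the cap-binding protein, fell by 0.40 (adjusted p = 0.0137), but its second probe read -0.06. The rises numbered 4, 3 and 4 without BT-549 everolimus replicate 2, BT-549 DMSO replicate 2 and BT-549 DMSO replicate 3, and the falls 2 without MDA-MB-231 DMSO replicate 2 or BT-549 everolimus replicate 1 and 3 without the replicate 1 arrays.

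Genes that build ribosomes tended down, with 12 of 76 called lower (15.8%, 5 of them shared) and 3 higher (3.95%), against 3.81% and 4.1% of all genes. Of the 76, 45 lay below 0 in both lines. The median was -0.17 (-0.08 in BT-549 and -0.31 in MDA-MB-231). LTV1 (-0.70) and NIP7 (-0.54), which serve the small and large subunit, had the smallest p among the falls. POLR1D, a subunit that RNA polymerases I and III share, rose by 0.74, and TAF1D, a subunit of the RNA polymerase I selectivity factor, rose by 0.88. UBTF, the ribosomal DNA activator (0.44, adjusted p = 0.0336, with a second probe at -0.15, named after its value was seen), was the other rise. Falls numbered 7, 7, 6, 2 and 4 without MDA-MB-231 everolimus replicates 2 and 3, BT-549 everolimus replicate 3 and BT-549 DMSO replicates 2 and 3, and 29 without the replicate 1 arrays. Rises numbered 5 without MDA-MB-231 everolimus replicate 1 or DMSO replicate 2.

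Host genes of small nucleolar RNAs, whose spliced transcripts are short-lived and turned over with translation, had the largest share of rises with all arrays. Without the replicate 1 arrays it was 35.3%, below the NF-kB (43.8%), quiescence (38.5%), FOXO (37.5%) and ERK (37%) lists. Of 17 tested, 6 were called higher (35.3%, 5 of them shared) and 2 lower (11.8%), against 4.1% and 3.81% of all genes. EPB41L4A-AS1 (1.71), SNHG32 (0.85, second probe 0.24), ZFAS1 (0.71) and SNHG6 (0.62) were led by EPB41L4A-AS1. EPB41L4A-AS1 read 12.39, 11.57 and 11.50 on BT-549 everolimus arrays, against 10.06, 9.55 and 9.30 in DMSO, and 11.08, 10.74 and 10.84 on MDA-MB-231 everolimus arrays, against 9.80, 9.40 and 9.75 in DMSO (adjusted p = 0.00243). SNHG9 (-0.72, adjusted p = 0.0177) and DANCR (-0.48, adjusted p = 0.0347), named after their values were seen, were called lower, and 1 of these calls was lost in 9 of 12 fits that left out 1 array and without the replicate 1 arrays. The list median was 0.22 (0.40 in BT-549 and 0.07 in MDA-MB-231), and 0.11, 0.14 and 0.13 without BT-549 everolimus replicate 2, BT-549 everolimus replicate 3 and BT-549 DMSO replicate 1.

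Components of mTOR signalling had 2 of 44 called higher (4.55%) and 1 lower (2.27%), against 4.1% and 3.81% of all genes. The list median was 0.04. DDIT4 (REDD1), a stress-induced brake on mTOR, fell by 1.76 (SE 0.42, adjusted p = 0.0283). DDIT4 read 9.23, 8.86 and 8.71 on BT-549 everolimus arrays, against 12.66, 12.09 and 10.50 in DMSO, and 9.28, 9.73 and 9.71 on MDA-MB-231 everolimus arrays, against 10.52, 10.35 and 9.96 in DMSO. The groups did not overlap in either line, and the DMSO arrays of BT-549 spread widely. The call was lost without BT-549 everolimus replicate 2 or 3 or BT-549 DMSO replicate 2 (adjusted p up to 0.0773) and without the replicate 1 arrays (adjusted p = 0.0699). SGK1, the glucocorticoid-induced kinase downstream of the second mTOR complex, rose by 0.87 (1.33 in BT-549 and 0.41 in MDA-MB-231, adjusted p = 0.0154), and RRAGC, a nutrient-sensing Rag GTPase, by 0.63 (adjusted p = 0.024). SGK1 missed the threshold without the replicate 1 arrays (adjusted p = 0.0539). RRAGC was lost without MDA-MB-231 everolimus replicate 3, BT-549 everolimus replicate 2 or BT-549 DMSO replicates 2 or 3. The list had 4 rises and 4 falls without the replicate 1 arrays (9.09% each, against 7.08% and 6.02% of all genes). It had 4 rises and 2 falls without MDA-MB-231 everolimus replicate 1, and 3 falls without BT-549 everolimus replicate 1.

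Growth factor receptors and their adaptors had 4 of 23 members called higher (17.4%, against 4.1% of all genes) and 0 lower. Beside IRS2 these were GAB2, a docking protein (0.60, adjusted p = 0.0202), AXL, a receptor tyrosine kinase (1.14, adjusted p = 0.0336), and EGFR (0.38, adjusted p = 0.0434, with a second probe at 0.06). GAB2 read 6.78, 6.94 and 6.98 on BT-549 everolimus arrays, against 6.66, 6.60 and 6.63 in DMSO, which is background, and 8.21, 8.68 and 8.70 on MDA-MB-231 everolimus arrays, against 7.53, 7.61 and 7.65 in DMSO. Only IRS2 and GAB2 were called in 12 of 12 fits that left out 1 array. AXL was lost without MDA-MB-231 everolimus replicate 3, MDA-MB-231 DMSO replicate 1 or any BT-549 array other than everolimus replicate 1, and EGFR was lost in 11 of 12. All 4 stayed called without the replicate 1 arrays, where the list had 5 rises.

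FOXO target genes, which FOXO factors induce when AKT signalling is low, rose in part. Of 32 tested, 6 were called higher (18.8%, against 4.1% of all genes) and 0 lower, and 5 of the calls were shared. In both lines 19 lay above 0 (59.4%, against 31.4% of all genes), and the list median was 0.18 (0.07 in BT-549 and 0.29 in MDA-MB-231). That median was 0.28 without BT-549 DMSO replicate 1 and 0.31 without the replicate 1 arrays. CREBRF, KLHL24, IRS2, KLF6 and TXNIP, all described above, made up the shared calls, and FOXO3 itself had 0.64 (adjusted p = 0.0481, with a second probe at 0.18). FOXO3 was called in only 3 of the 12 fits that left out 1 array and not without the replicate 1 arrays (adjusted p = 0.0524). CREBRF read 7.78, 7.73 and 7.91 on BT-549 everolimus arrays, against 6.82, 6.84 and 6.66 in DMSO, and 8.12, 8.07 and 8.15 on MDA-MB-231 everolimus arrays, against 7.47, 6.99 and 7.13 in DMSO. It had a smaller p than any other shared rise in the ranking. Without the replicate 1 arrays 12 FOXO targets were called higher. A fall was called without MDA-MB-231 everolimus replicates 1 or 2 or MDA-MB-231 DMSO replicate 1. The FOXO list shares IRS2 with the growth factor list, KLF6 and FOXO3 with the quiescence list, and KLF6 with the Kruppel-like list. The counts of these lists are therefore not separate evidence.

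CDK inhibitors and genes of quiescence had 4 of 26 called higher (15.4%, against 4.1% of all genes), 0 lower and a median of 0.32. HBP1, a repressor of cell cycle genes, rose by 0.75 (adjusted p = 0.00991), and CDKN1C, which encodes the inhibitor p57, by 0.49 (adjusted p = 0.0128). HBP1 read 8.48, 8.66 and 8.49 on BT-549 everolimus arrays, against 8.08, 7.64 and 7.49 in DMSO, and 7.80, 8.46 and 8.42 on MDA-MB-231 everolimus arrays, against 7.43, 7.73 and 7.42 in DMSO. KLF6 and FOXO3 were the other calls. The count was 7 without BT-549 everolimus replicate 1 and 10 without the replicate 1 arrays. Of 13 Kruppel-like factors 2 rose (15.4%, against 4.1% of all genes), KLF6 and KLF13 (0.85, adjusted p = 0.000822), and 0 fell.

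Autophagy genes had 5 of 41 called higher (12.2%, 4 shared) and 1 lower (2.44%), against 4.1% and 3.81% of all genes. The receptors OPTN (1.00, adjusted p = 0.00342) and SQSTM1 (0.73, adjusted p = 0.0165) rose, as did GABARAPL1, an ATG8 protein of the forming membrane (0.61), and ATG14, a subunit of its lipid kinase (0.68). OPTN read 9.87, 9.78 and 10.08 on BT-549 everolimus arrays, against 8.98, 8.77 and 8.44 in DMSO, and 9.98, 10.54 and 10.52 on MDA-MB-231 everolimus arrays, against 9.31, 9.67 and 9.60 in DMSO. WIPI2 (0.43, adjusted p = 0.033) and ATG5 (-0.33, adjusted p = 0.029), named after their values were seen, were the other calls. Rises numbered 8 without MDA-MB-231 everolimus replicate 1, 3 without MDA-MB-231 everolimus replicate 3, MDA-MB-231 DMSO replicate 1 or BT-549 DMSO replicates 2 or 3, and 12 without the replicate 1 arrays. Falls numbered 0 in 7 of 12 fits and 2 without MDA-MB-231 everolimus replicate 1, MDA-MB-231 DMSO replicates 2 or 3 or the replicate 1 arrays.

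Lysosomal genes had 4 of 51 called higher (7.84%, against 4.1% of all genes), 0 lower and a median of 0.13. CTSF, a cysteine cathepsin, rose by 0.94 (adjusted p = 0.00941), and NPC1, which exports cholesterol from the lysosome, by 1.45 (2.31 in BT-549 and 0.60 in MDA-MB-231, adjusted p = 0.031). CLN3 (0.40) and TPP1 (0.67), both tied to lysosomal storage disease, were the other calls. Only CTSF was called in 12 of 12 fits that left out 1 array. The list had 1 rise without MDA-MB-231 everolimus replicate 3 or BT-549 DMSO replicates 2 or 3, 2 without DMSO replicate 1 of either line, and 7 rises and 1 fall without the replicate 1 arrays. Those 7 rises were 13.7% of the list, against 7.08% of all genes.

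**Figure D5:**
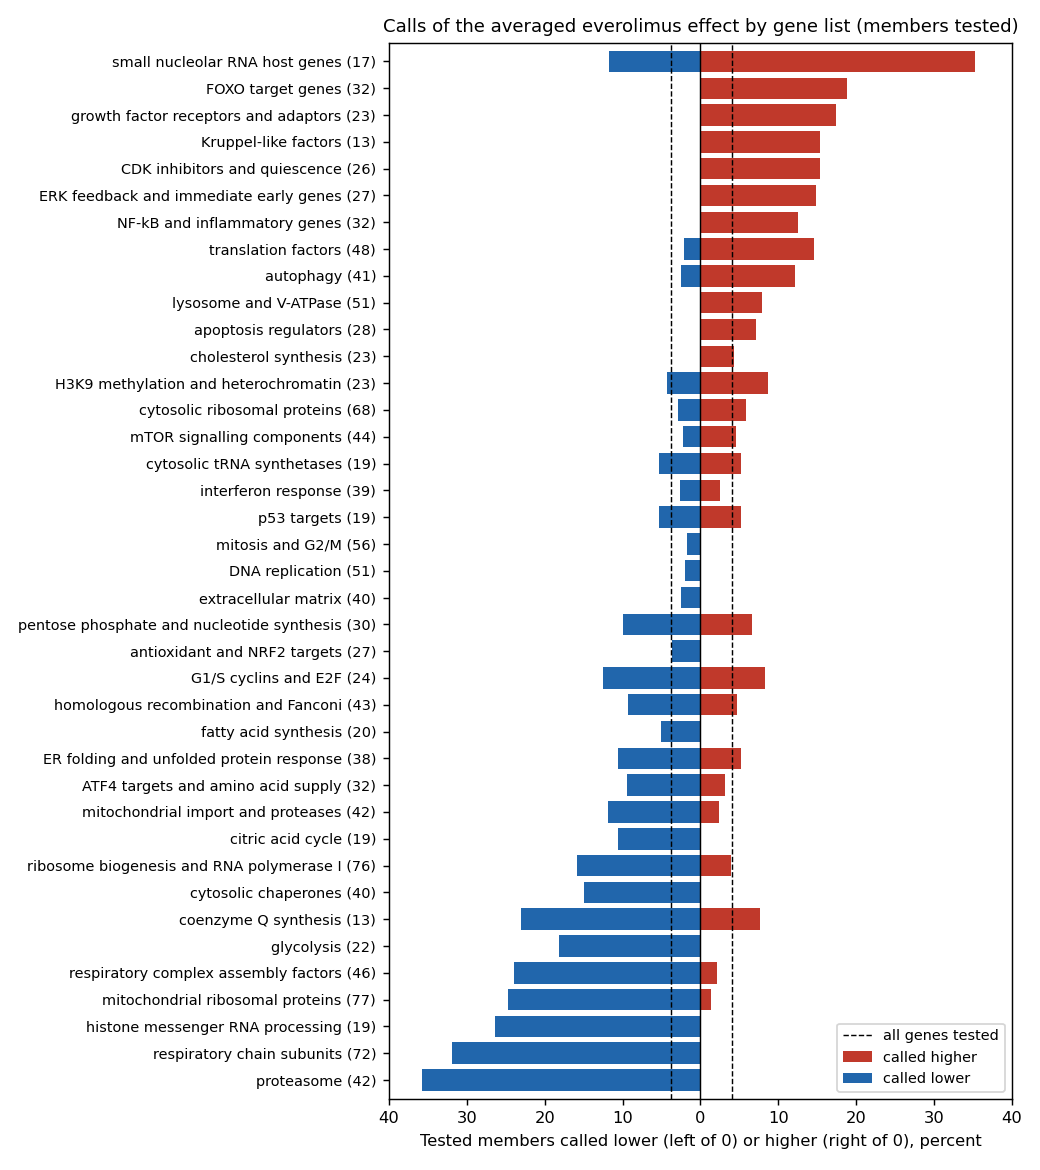
Percent of tested members called lower (blue, left of 0) and higher (red, right of 0) in each of 39 gene lists, with members tested in brackets; dashed lines mark 3.81% lower and 4.1% higher over all genes. Proteasome, respiratory chain, histone messenger RNA processing, mitochondrial ribosome and assembly factors lie at the bottom with falls, and nucleolar RNA hosts and FOXO targets at the top with rises.

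Genes that process histone messenger RNAs fell in a block of 5 of 19 (26.3%, against 3.81% of all genes), all shared, with 0 higher. LSM10 of the U7 particle was joined by SNRPF (-0.75), SNRPG (-0.64) and SNRPD3 (-0.38, adjusted p = 0.0399, named after its value was seen), Sm proteins that U7 shares with the spliceosome, and by CSTF2 (-0.63), a cleavage factor. LSM10 read 8.26, 8.09 and 7.87 on BT-549 everolimus arrays, against 9.32, 9.26 and 9.32 in DMSO, and 7.90, 7.86 and 7.98 on MDA-MB-231 everolimus arrays, against 8.67, 8.70 and 8.70 in DMSO (adjusted p = 0.000822). The count stayed between 4 and 6 with 1 array left out and was 5 without the replicate 1 arrays. The list median was -0.13.

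Replication and mitosis genes were called rarely. In DNA replication 1 of 51 genes fell (1.96%), MCM6, a subunit of the replicative helicase (-0.63, adjusted p = 0.0136), and in mitosis 1 of 56 (1.79%), CKS2 (-0.75, adjusted p = 0.0245), both below the 3.81% of all genes. The medians were -0.18 each. Both moved without the replicate 1 arrays. The mitosis median was 0.03 without them. Leaving out a single everolimus array gave 0.02 (BT-549 replicate 1), -0.08 (MDA-MB-231 replicate 1) or -0.29 (BT-549 replicate 3). The replication median was -0.11 without the replicate 1 arrays or BT-549 DMSO replicate 3 and -0.04 without BT-549 everolimus replicate 1. On BT-549 everolimus arrays the mitosis list lay at -1.07, 0.37 and 0.37, against -0.10, 0.09 and 0.32 in DMSO, and on MDA-MB-231 everolimus arrays at -0.50, 0.15 and 0.05, against -0.04, 0.24 and 0.06 in DMSO. Replicate 1 was the lowest everolimus array in both lines, and what part it played in the calls of other lists was not tested beyond leaving it out. CKS2 was lost without BT-549 everolimus replicate 3 or BT-549 DMSO replicates 2 or 3. Replication falls numbered 3 without MDA-MB-231 everolimus replicate 1 or BT-549 DMSO replicate 1, 2 without MDA-MB-231 DMSO replicate 2, and 4 without the replicate 1 arrays; 1 rise was called without everolimus replicate 1 of either line. Mitosis falls numbered 2 without MDA-MB-231 everolimus replicate 1 or MDA-MB-231 DMSO replicate 3, and 3 mitosis genes rose without the replicate 1 arrays. Of 24 genes of the G1/S step 2 rose (8.33%) and 3 fell (12.5%), against 4.1% and 3.81% of all genes. Without the replicate 1 arrays 5 of the 24 fell. CDK7 and MYC (0.71, adjusted p = 0.043) rose and SKP2, E2F4 (-0.34) and CDK2 (-0.64) fell. MYC was called in 3, CDK2 in 4 and E2F4 in 5 of 12 fits that left out 1 array.

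Homologous recombination, which the series title also names, had 4 of 43 genes called lower (9.3%) and 2 higher (4.65%), against 3.81% and 4.1% of all genes. Its median was -0.05, and 0.04 without BT-549 everolimus replicate 1. Without the replicate 1 arrays 6.98% of the list was called each way, near the 6.02% lower and 7.08% higher of all genes. FANCB, a subunit of the Fanconi core complex (-0.53, adjusted p = 0.0204), and SEM1 (-0.48), a small protein that binds BRCA2 and is part of the proteasome, fell, and FANCE rose by 0.70. RAD54B (-0.44, adjusted p = 0.045) and MUS81 (0.46, adjusted p = 0.0459), named after their values were seen, were also called. FANCB was called in 11 of 12 fits that left out 1 array, FANCE in 10 and SEM1 in 3. Falls numbered 2 without MDA-MB-231 everolimus replicate 2, MDA-MB-231 DMSO replicates 1 or 3, BT-549 everolimus replicates 1 or 2 or BT-549 DMSO replicate 3, 1 without BT-549 DMSO replicate 2, and 3 without the replicate 1 arrays. Rises were 0 without BT-549 everolimus replicate 2 or BT-549 DMSO replicate 2, and 1 in 7 further fits.

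Around SUV39H1, the list of H3K9 methylation and heterochromatin had 1 of 23 genes called lower (4.35%) and 2 higher (8.7%). Over all genes these shares were 3.81% and 4.1%. The demethylases KDM3A (0.50, adjusted p = 0.00594) and KDM3B (0.61, adjusted p = 0.0383) rose while the methyltransferase fell. KDM3A read 8.51, 8.72 and 8.45 on BT-549 everolimus arrays, against 8.16, 7.92 and 8.03 in DMSO, and 8.49, 8.58 and 8.48 on MDA-MB-231 everolimus arrays, against 8.23, 7.98 and 7.89 in DMSO. KDM3B was lost in 8 of 12 fits that left out 1 array. The other methyltransferases of the list were not called. A second fall was called without MDA-MB-231 DMSO replicate 3.

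In glycolysis 4 of 22 genes fell (18.2%, against 3.81% of all genes) and 0 rose. LDHA, which makes lactate, read 11.95, 11.89 and 11.66 on BT-549 everolimus arrays, against 13.21, 13.21 and 13.15 in DMSO, and 13.06, 13.50 and 13.29 on MDA-MB-231 everolimus arrays, against 13.74, 13.90 and 13.63 in DMSO. It fell by 0.92 (adjusted p = 0.00774). PGAM1 (-1.59), LDHB (-0.43) and ENO1 (-0.37) were the other falls, and other probes of LDHA read -0.90 and -0.32. The falls numbered 2 without MDA-MB-231 everolimus replicate 3, MDA-MB-231 DMSO replicate 1 or BT-549 everolimus replicates 2 or 3, and 1 without BT-549 DMSO replicates 2 or 3. In serine and amino acid supply under ATF4, PSAT1, PSPH (-0.63, second probe -0.17) and ASNS (-0.74, second probe -0.34) fell and PPP1R15A, a phosphatase subunit that reverses the stress-induced block of translation, rose by 1.29 (adjusted p = 0.0135), out of 32 genes. Only 1 of the 3 falls was called without MDA-MB-231 everolimus replicate 2, BT-549 everolimus replicates 2 or 3 or any 1 BT-549 DMSO array, and 2 rises were called without replicate 1 of the everolimus arrays of either line. The falls were 9.4% of this list and the rise 3.1%, against 3.81% and 4.1% of all genes. Without the replicate 1 arrays, 7 genes of this list rose (21.9%, against 7.08% of all genes).

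Inflammatory and growth-signal genes leaned up, with calls that changed as single arrays were left out. The NF-kB list had 4 of 32 called higher (12.5%), 0 lower and a median of 0.41. The ERK list of feedback and immediate early genes had 4 of 27 (14.8%), 0 lower and a median of 0.42. Over all genes 4.1% were called higher and 3.81% lower. RELB (1.27), NFKB2 (1.16), IRAK2 (1.25) and LIF (0.65) were the NF-kB calls, and DUSP6 (0.91), DUSP5 (1.36), ETV5 (0.52) and MYC the ERK calls; second probes of DUSP6 and ETV5 read 0.13 each. None of these 8 was called in all 12 fits that left out 1 array. NF-kB calls numbered 0 without BT-549 everolimus replicates 2 or 3 or any 1 BT-549 DMSO array, 1 without MDA-MB-231 DMSO replicate 1, 2 without MDA-MB-231 everolimus replicates 2 or 3, 9 without BT-549 everolimus replicate 1 and 14 without the replicate 1 arrays. ERK calls ranged from 0 (without BT-549 DMSO replicate 2 or 3) to 6 with 1 array left out, were 1 or 2 in 7 further fits, and were 10 without the replicate 1 arrays. Without those arrays the shares were 43.8% (NF-kB) and 37% (ERK), against 7.08% of all genes.

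Cytosolic chaperones had 6 of 40 called lower (15%, against 3.81% of all genes) and 0 higher, with the co-chaperones BAG2 (-0.61) and CHORDC1 (-0.63) first. These falls numbered 3 without MDA-MB-231 everolimus replicates 2 or 3, MDA-MB-231 DMSO replicate 3 or BT-549 everolimus replicates 2 or 3, 2 without BT-549 everolimus replicate 1 or BT-549 DMSO replicate 3, and 1 without BT-549 DMSO replicate 2. In the endoplasmic reticulum 4 of 38 genes fell (10.5%), among them SPCS3 of the signal peptidase (-0.66) and SDF2L1. The co-chaperone DNAJB9 (0.73) and the ubiquitin ligase SYVN1 (0.45) rose. These 2 rises were 5.26% of the list, against 4.1% of all genes. The falls numbered 2 without BT-549 everolimus replicates 2 or 3 or any 1 BT-549 DMSO array, and 0 rises were called without BT-549 everolimus replicate 2 or BT-549 DMSO replicate 2.

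In nucleotide synthesis and the pentose phosphate path 3 of 30 genes fell (10%), RPE (-0.50), PPAT (-0.35) and PRPS1 (-0.67), and 2 rose (6.67%). Over all genes 3.81% fell and 4.1% rose. CTPS2, a CTP synthase, rose by 0.45, and PGLS (0.62, adjusted p = 0.0436), named after its value was seen, was called higher. Only 1 rise was called without MDA-MB-231 everolimus replicates 1, 2 or 3, MDA-MB-231 DMSO replicates 1 or 3, BT-549 everolimus replicates 2 or 3 or any 1 BT-549 DMSO array, and falls numbered 6 without MDA-MB-231 everolimus replicate 1 and 7 without the replicate 1 arrays. Among 19 cytosolic tRNA synthetases QARS1 rose (0.55) and MARS1 fell, both in 12 of 12 fits that left out 1 array. Each call was 5.26% of the list, against 4.1% higher and 3.81% lower over all genes. Without MDA-MB-231 everolimus replicate 1 or BT-549 DMSO replicate 1 a second synthetase fell.

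Of 39 interferon genes HLA-E, a non-classical class I molecule, rose by 0.92 (adjusted p = 0.0113) and IRF1 fell by 0.51 (adjusted p = 0.0371). IRF1 was called in 5 of 12 fits that left out 1 array. Without the replicate 1 arrays 13 interferon genes were called higher (33.3%, against 7.08% of all genes), and 5 without BT-549 everolimus replicate 1. The list median was 0.19, but 0.01 without BT-549 everolimus replicate 3. Of its genes 53.8% lay above 0 in both lines, against 31.4% of all genes. Among p53 targets XPC rose (0.47) and TIGAR fell (-0.59), of 19. These calls were 5.26% of p53 targets each way, and the interferon calls 2.56% each way. Over all genes the shares were 4.1% higher and 3.81% lower, and the antioxidant fall given next was 3.7% of its list. Without the replicate 1 arrays 4 p53 targets rose and 2 fell. XPC was lost without BT-549 everolimus replicate 2 or BT-549 DMSO replicates 2 or 3. PRDX4, an endoplasmic reticulum peroxidase, was the single call among 27 antioxidant genes (-0.60), and falls numbered 3 or 4 without MDA-MB-231 everolimus replicates 1 or 2 or MDA-MB-231 DMSO replicates 1 or 2. Leaving out MDA-MB-231 DMSO replicate 3 gave 2 falls, and leaving out the replicate 1 arrays gave 3 rises and 3 falls.

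BOK (0.68) and MCL1 (0.75), of the BCL2 family, rose among 28 apoptosis regulators, in 7 and 5 of 12 fits, and 4 rose and 1 fell without the replicate 1 arrays. COL12A1, a collagen, was the single call among 40 matrix genes (-0.47) and was lost without BT-549 everolimus replicates 2 or 3 or BT-549 DMSO replicates 2 or 3. Without the replicate 1 arrays 3 matrix genes rose and 3 fell. Fatty acid synthesis had 1 call among 20 genes, ELOVL5 (-0.39, adjusted p = 0.0495), an elongase, which was lost in 10 of 12 fits and without the replicate 1 arrays (adjusted p = 0.157). This list had a median of -0.33, with 12 of 20 genes below 0 in both lines, and 5 falls and 2 rises were called without the replicate 1 arrays. The cholesterol list of 23 genes had only NPC1, lost in 7 of 12 fits. Rises were 7.14% of apoptosis regulators and 4.35% of the cholesterol list, against 4.1% of all genes. Falls were 2.5% of matrix genes and 5% of fatty acid genes, against 3.81% of all genes.

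The effect differed between the lines, at an adjusted p under 0.05 for the interaction, for 75 genes (0.638%), and in 46 of these the lines moved in opposite directions. Only 13 of the 75 were also called for the average. CITED4, a transcriptional co-activator, read 10.10, 9.82 and 9.74 on BT-549 everolimus arrays, against 8.10, 8.12 and 7.93 in DMSO, and 6.96, 6.71 and 6.79 on MDA-MB-231 everolimus arrays, against 6.79, 6.55 and 6.58 in DMSO. It changed by 1.84 in BT-549 and by 0.18 in MDA-MB-231, where it lay near background, so its average of 1.01 describes neither line. CDK2, the kinase of S phase entry, changed by -1.18 in BT-549 and -0.10 in MDA-MB-231, and its second probe averaged -0.11. Both averages were lost in fits that left out 1 array, in 6 and 8 of 12, and with replicate number as a block (adjusted p = 0.0661 for CITED4 and 0.0816 for CDK2). The number of genes that differed was itself unsteady. It was 0 without MDA-MB-231 everolimus replicate 2 or 3, MDA-MB-231 DMSO replicate 2 or 3, or BT-549 DMSO replicate 2, and 1219 without BT-549 everolimus replicate 1. It was 2, 11, 16 and 31 without BT-549 everolimus replicate 3, BT-549 DMSO replicate 1, BT-549 everolimus replicate 2 and MDA-MB-231 everolimus replicate 1, and 2345 without the 4 replicate 1 arrays.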

How the data were processed

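Expression was measured on Illumina bead arrays in 12 samples: BT-549 and MDA-MB-231 cells with everolimus or DMSO, 3 arrays each. The authors deposited log2 signals per probe (6.24 to 14.56, median 6.65). Every array has the same sorted values, so the deposited log2 table was quantile normalized; no source used here names the software or the background correction. A second table of unnormalized values has 12 columns that match no sample's labels and was not used. Probes were named from the platform annotation: of 47230 probes 30113 had 1 gene symbol, 8 had several and 17109 were not listed.

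The background peak lay at 6.55 with an SD of 0.0724, and 3 SDs above it gave the floor of 6.77. The brightest of a gene's 15583 kept probes stood for it, and 3117 of the genes tested had several. limma 3.58.1 in R 4.3.3 fitted cell line plus treatment to 11764 genes, with Benjamini-Hochberg adjustment over all of them and a threshold of 0.05 (9 residual and 2.90 prior degrees of freedom). The difference between lines came from a fit of 4 group means. The fits were tested on simulated data. Signals near background understate fold changes, and the number of arrays limits precision.

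The genes named were SUV39H1, MTOR and FKBP1A, the 15 shared calls each way ranked by the smaller within-line change, the 5 genes each way with the smallest p for the difference between lines, and up to 4 members per list with the smallest p; some items of this rule are not reported here. The members and lists were chosen with earlier results of these data known. In total 23 alternative settings were tried. Promoters were read from RefSeq tables (GRCh38.p14), and figures were drawn with matplotlib 3.10.9.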

Additional observations from a re-analysis of the deposited data

Results flagged for a closer look

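For 13 genes called for the averaged effect, the change with everolimus differed between the lines by the interaction test (limma, adjusted p 0.015 to 0.0448). Differences are BT-549 minus MDA-MB-231 on the log2 scale, and in all 13 the BT-549 change was the larger one. Higher in BT-549 by more were CITED4 (difference 1.66; 1.84 in BT-549 and 0.18 in MDA-MB-231), MIB2, a ubiquitin ligase of Notch signalling (1.01), and ZCCHC7, a nuclear RNA surveillance protein (0.94). CLCN6, an endosomal chloride transporter (0.84), FHIP2B (0.83), COQ8A (0.80) and HEBP1, a haem-binding protein (0.79), followed. COQ8A rose in both lines, by 1.51 in BT-549 and 0.71 in MDA-MB-231.

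Lower in BT-549 by more were PGAM1, the phosphoglycerate mutase of glycolysis (difference -2.15; -2.66 in BT-549 and -0.52 in MDA-MB-231), and PGAM4 (-1.34). These genes are near copies, so the probes may read the same transcript. CDK2 differed by -1.08, UQCRB, a complex III subunit, by -0.94 (-1.34 in BT-549 and -0.40 in MDA-MB-231, while other UQCRB probes averaged -0.13 and 0.02), RAB2A, a GTPase of membrane traffic, by -0.94 and AMMECR1 by -0.91. The averaged call was lost in 6 of 12 fits that left out 1 array for CITED4 and CLCN6, in 8 for CDK2, without BT-549 DMSO replicates 2 or 3 for PGAM1, and without BT-549 DMSO replicate 2 for ZCCHC7 and FHIP2B. With replicate number as a block the averaged calls were lost for CITED4 (adjusted p = 0.0661), CLCN6 (0.0682) and CDK2 (0.0816).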

How the results depend on the processing

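The 930 averaged calls became 1469 with 4 group means, 1448 with a random replicate block, 1573 with array weights, 1541 without the 4 replicate 1 arrays, and 309 to 1227 with 1 array left out. The 593 shared calls became 292 to 960 with 1 array left out, 1507 without the replicate 1 arrays, and 123 when at least a 1.5-fold change was asked of each line. The 75 genes that differed between lines became 707 with the replicate block, 827 with a random replicate block, 23 after background subtraction, 16 with a trended robust prior, 2362 with array weights, 2345 without the replicate 1 arrays, and 0 to 1219 with 1 array left out. The cause was not tested, beyond the smaller number of arrays. Same-numbered arrays of both treatments correlated at 0.418 to 0.735 in MDA-MB-231. In BT-549 the correlation was 0.0787 for replicate 2, 0.411 for replicate 3 and within the MDA-MB-231 range for replicate 1. Only 1 pair thus lay under 0.1, and because of it same-numbered arrays were not taken as pairing. The best correlation with a differently numbered array was higher for BT-549 replicate 2 (0.465) and MDA-MB-231 replicate 3 (0.546 against 0.418). For every other pair it was lower than that of the same number, so the pairing stays uncertain. The replicate block gave 1179 averaged and 529 shared calls. With array medians made equal, 430 of 981 calls were higher (43.8%), against 51.8% in the reported fit. Among 966 values of named genes, none changed sign where either fit made a call. List medians were not part of that check, and 22 of their 897 values moved by at least the SD between replicate arrays. Over all settings, 35 of 966 values lost a call that the reported fit had made. Of these 35 losses, 13 were for CDK2, 9 for CITED4 and 8 for CLCN6. The 966 values cover SUV39H1, MTOR, FKBP1A, the ranked shared calls and the genes with the smallest p for the line difference. MTOR and FKBP1A were not called in the reported fit, so they had no call to lose. Genes named from lists were lost more often, as given beside them. Small list medians crossed 0 with 1 array left out in the homologous recombination, antioxidant, cholesterol, ATF4, cytosolic ribosomal protein, mitosis, coenzyme Q and H3K9 lists. The coenzyme Q median (-0.01 as reported) was also 0.04 with array weights. The H3K9 median (0.05 as reported) was also -0.04 without the replicate 1 arrays. Signal over background limits genes near the floor, whose fold changes are understated.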
